A study of Mus musculus with 8 samples.

Results

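Mitochondrial ribosomes translate the few mRNAs of the mitochondrial genome, which encode core subunits of the respiratory chain. Their proteins are encoded in the nucleus, made by cytosolic ribosomes and imported, with Mrpl proteins named for the large subunit and Mrps proteins for the small subunit. Cytosolic ribosomal protein mRNAs are the classic TOP mRNAs, which start with a run of pyrimidines through which mTOR controls their translation. The mRNAs of the mitochondrial ribosome offer a comparison with a similar kind of protein product, and how their translation is controlled was not tested.

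The mRNAs of the mitochondrial ribosome were taken by gene symbol, as every gene whose name starts with Mrpl or Mrps and a digit. A read counted once per transcript when its tail estimate carried the quality tag PASS, and transcripts typed as pseudogenes were left out. This gave 78 of the 13120 genes with reads, 49 named for the large and 29 for the small subunit, and 19575 of 1926118 reads (1.02%). All 78 had at least 30 reads, from 62 for Mrpl36 to 844 for Mrpl12. Mrpl58, once called Ict1, is a member under its present name. Large and small subunit below follow the names, which do not always match the subunit. For example, Mrps18a is known to sit in the large subunit and Mrps36 to belong to the oxoglutarate dehydrogenase complex.

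Tails were read by nanopore direct RNA sequencing, in which a whole RNA molecule is pulled through a pore and its poly(A) tail length is estimated from the signal. The cells were P19, a wild-type mouse embryonal carcinoma line, kept undifferentiated. They received MHY1485 (MHY), an activator of mTOR, at 10 µM, or the solvent DMSO alone, for 24 h or 48 h. Each of the 4 groups had 2 libraries, described as biological replicates, and p-values below measure only the spread between these libraries. Libraries carry the numbers of the deposited table, 21 and 23 at 24 h and 24 and 25 at 48 h, which are names and not hours. The table names its conditions with _48 for the later time and with no suffix otherwise, and conditions with no suffix were taken as 24 h, the other labelled time, which is an inference from the names. Runs were told apart by a label in the deposited table, and taking that label as a sequencing run is an inference. Every such run held both treatments, with 3 runs at 24 h and 2 runs at 48 h, but no run held both times. The number of runs at the earlier time differs from the number of multiplexed libraries that the paper describes for it. On this reading a difference between times cannot be told apart from a difference between runs.

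Depth ranged from 178369 to 316546 reads per library, of which 1694 to 3467 were from mRNAs of the mitochondrial ribosome. The embryonal carcinoma markers (Pou5f1, Sox2, Nanog and 5 others) summed to between 3486 and 4031 RPM (reads scaled to a common library total) in the 8 libraries, with all 8 genes detected. Of these Tdgf1 was called with a lower count at 48 h with MHY (log2 fold change -0.997 ± 0.213, limma voom, adjusted p = 0.000679). The neuron markers summed to between 31.4 and 75.6 RPM, with Dcx and Neurog1 at 0 reads. The 5 endoderm markers reached at most 9.34 RPM. MHY 48 h library 24 stood apart among all other mRNAs, with a median tail of 92.4 nt against 96.8 to 103 nt in the other 7 libraries. For the mRNAs of the mitochondrial ribosome its median (87.3 nt) was close to that of DMSO 48 h library 24 (88.4 nt). Pooled differences of the set at 48 h are given with and without it.

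Since a read comes from 1 RNA molecule, counts were not divided by transcript length. A read listed on more than 1 transcript was counted once on each, so the counts are of lines and not strictly of molecules. Mitochondrial ribosomal protein mRNAs made up 10165 and 9726 RPM in DMSO 24 h libraries 21 and 23, and 10401 and 9497 in MHY 24 h libraries 21 and 23. They made up 10104 and 9597 RPM in DMSO 48 h libraries 24 and 25, and 11128 and 10519 in MHY 48 h libraries 24 and 25. The groups overlapped at 24 h, and at 48 h the MHY libraries were the higher pair, by 973 RPM on average (9851 ± 358 against 10823 ± 431, SD, n = 2). In the same libraries the mRNAs of cytosolic ribosomal proteins made up 298693 RPM with DMSO and 278609 with MHY on average, with no overlap (291885 and 305501 against 269582 and 287636), and their part in the difference of the set was not tested. That difference of -20084 RPM was -11057 without MHY 48 h library 24 and -13276 without DMSO 48 h library 25. Without MHY 48 h library 24 the difference of the set was 668 RPM. Within runs it was 407 RPM in run 4, where the groups overlapped, and 1375 RPM in run 5, where they did not. Large subunit mRNAs gave 66.7% of the reads.

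Mrpl12, which encodes the flexible stalk protein of the large subunit, had the most reads (844). Mrpl20 (519 reads), Mrpl51 (515), Mrpl42 (510), Mrpl52 (492), Mrpl15 (447), Mrpl11 (440) and Mrpl18 (410) followed, all of the large subunit. The first small subunit mRNA was Mrps24 with 403 reads. The median over the 78 genes was 238.5 reads, 242 for large and 218 for small subunit genes. The order of the genes by level held between the times, with a Spearman rho of 0.93 over the 78 genes between the DMSO libraries of 24 h and those of 48 h. That value is a description over genes, which share their libraries.

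The level of a gene depends on which gene a read is assigned to. Mapping quality does not separate doubt between genes from doubt between transcripts of the same gene. Mapping quality reached 10 in 84.1% of the reads of the set and in 71.5% of all reads. For 5 genes, Mrps10, Mrps23, Mrps34, Mrpl1 and Mrpl53, under 5% of the reads reached it, and for 68 genes most did. Mrps10, a small subunit protein, spread over 9 annotated transcripts, the most used holding 26.3% of its reads. Another 24 genes used 1 transcript only. Reads typed as protein coding made up 97.0%, with 250 reads on transcripts marked for nonsense-mediated decay, 211 on transcripts with a retained intron and 136 on processed transcripts. Their median tails were 97.0, 86.7 and 83.3 nt, against 92.7 nt on protein-coding transcripts. Mrpl23 is uncertain, since its 105 reads, of which 20% reached a mapping quality of 10, stand beside 295 reads on its processed pseudogene Mrpl23-ps1.

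The 3′ ends of the reads show which poly(A) sites these genes used. Ends piled up within 15 nt to either side of a position at 118 sites on 94 transcripts of all 78 genes. Of the reads on these transcripts 94.6% ended at such a site. The most used site lay within 30 nt of the annotated transcript end for 48 transcripts and over 1000 nt before it for 25. Mrpl17 was annotated to 7300 nt, and 65.6% of its reads ended at 823 nt from its start. Mrps25 was annotated to 6073 nt with 79.3% of reads ending at 761 nt, and Mrpl51 to 3427 nt with 85.6% ending at 683 nt. The median most used end lay at 882.5 nt, against a median annotated length of 1208 nt.

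A poly(A) signal stood before most of these ends. In the 40 bases up to the end, the signal found was AATAAA at 70 sites and ATTAAA at 27, together 82.2% of the 118. The same search over every stretch of 40 bases in these transcripts found one of the 2 signals in 4.43%. The signal started a median of 22 bases before the end. At 15 further sites only a rarer variant of the signal was found, and at 6 sites none of the 9 hexamers searched. The window after the end was rich in A, with 6 or more of 10 bases, at 1 of the 70 sites where the transcript went on for at least 10 bases, the first site of Mrpl19.

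**Figure D1:**
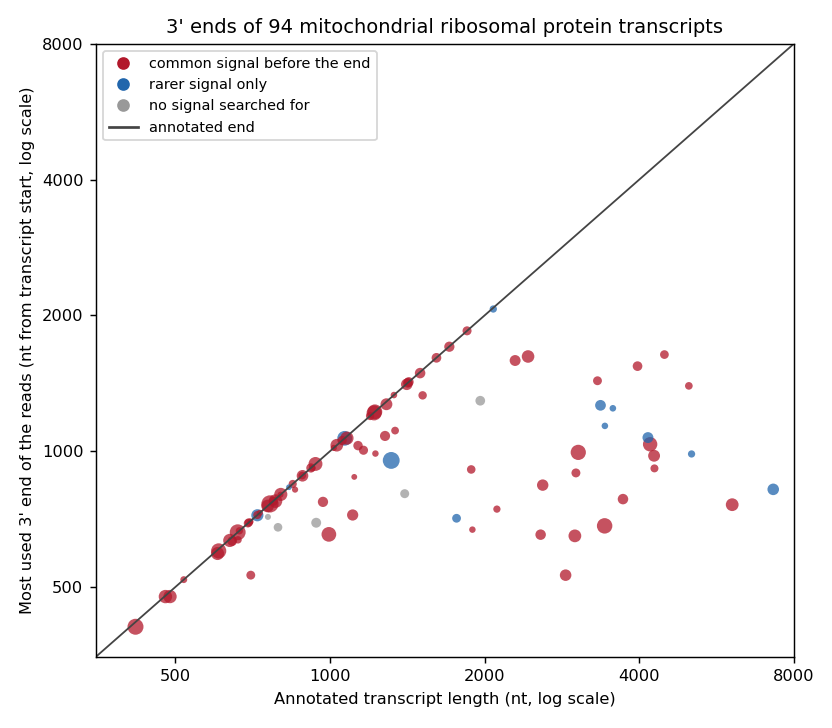
Most used 3′ end of the reads (y axis, nt from the transcript start) against the annotated length (x axis, nt), both on log scales, for 94 transcripts of the 78 genes, with area growing with the reads at the site and color showing the poly(A) signal in the 40 bases before the end. Points on the line end where the annotation ends, and 25 transcripts lie over 1000 nt below it, such as Mrpl17 at 823 of 7300 nt.

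The windows below show the end of the message for genes with short (Mrpl2, Mrps28) and long tails (Mrps33) among those with at least 200 reads, for the most read gene and for Mrps25 and Mrpl17, whose most used ends lay farthest before the annotated end. Each runs 5′ to 3′ over the last 30 bases before the most used end of the site, from the GENCODE vM21 transcripts (GRCm38), with the poly(A) signal in capitals.
Mrpl2 at chr17:46650103-46650132 (+): tggactctAATAAAatgtctcttgttttta
Mrps28 at chr3:8802154-8802183 (-): ttgaataaatttatAATAAAtgaaaagtaa
Mrps33 at chr6:39802189-39802218 (-): taatggagtgAATAAActattgttgactga
Mrpl12, first site, at chr11:120488674-120488703 (+): aaAATATActattcaggctggggtgttcaa
Mrpl12, second site, at chr11:120488725-120488754 (+): gctgggagTATAAAggaccacctggaggca
Mrps25, first site, at chr6:92174837-92174866 (-): cagatgtcAATAAAagatttagtcttccta
Mrps25, second site, at chr6:92174115-92174144 (-): ggcaaAATAAAgcagtggttgttaaaaatg
Mrpl17, first site, at chr7:105809683-105809712 (-): gcacagaaGATAAAagtcttaatatgaata
Mrpl17, last site, at chr7:105809318-105809347 (-): cagtactaggATTAAAggtatggggcacta
All lie in the last part of the message, where a mature mRNA is cut and given its tail. Mrpl12, with its 844 reads, ended 487 times at its first site and 331 times at its second, both with a variant signal.

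Tails of the set were shorter than those of other mRNAs. The median tail was 94 and 94.2 nt in DMSO 24 h libraries 21 and 23, and 94.7 and 96.9 nt in MHY 24 h libraries 21 and 23. It was 88.4 and 93.9 nt in DMSO 48 h libraries 24 and 25, and 87.3 and 92.8 nt in MHY 48 h libraries 24 and 25. The median of the set minus that of all other mRNAs in the same library was -8.40 to -4.60 nt, below 0 in 8 of 8 libraries. Against mRNAs of nuclear-encoded oxidative phosphorylation subunits, whose products also go to mitochondria, this difference was -7.82 to -2.06 nt, again below 0 in 8 of 8. Cytosolic ribosomal protein mRNAs stood on either side, the set being shorter in 3 libraries and longer in 5. Among reads that end 600 to 900 nt from the transcript start, the set had a median of 89.9 nt over 7807 reads and other mRNAs 93.4 nt over 372034 reads, with the set lower in 8 of 8 libraries. For ends at 1200 to 1800 nt these medians were 96.7 and 99.8 nt, with the set again lower in 8 of 8, and for ends at 300 to 600 nt and at 900 to 1200 nt it was lower in 6 of 8.

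Tails under 30 nt formed the shortest class. Such a tail under 30 nt was found on 925 of its reads. Their share was 4.79% and 4.36% in DMSO 24 h libraries 21 and 23, 2.65% and 3.54% in MHY 24 h libraries 21 and 23, 5.47% and 3.85% in DMSO 48 h libraries 24 and 25, and 6.84% and 5.37% in MHY 48 h libraries 24 and 25. For all other mRNAs the share was between 2.15% and 4.44%. The set exceeded them in 8 of 8 libraries, by 0.421 to 2.62 percentage points, and it also exceeded cytosolic ribosomal protein mRNAs and oxidative phosphorylation mRNAs in 8 of 8. In MHY 24 h library 21, the closest case, the 95% Wilson interval of the set (2.07% to 3.38%) still held the share of other mRNAs (2.23%). Intervals cover counting error only. With the bound moved to 20 nt the excess was 0.468 points (median) and was seen in 7 of 8 libraries.

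Reads were also compared by whether they ended at a site. Of the reads under 30 nt, 94.3% ended at one of the sites above, and of the others 94.6%. Reads that ended elsewhere had a median of 96.6 nt, against 92.5 nt at the sites, and 4.93% of them were under 30 nt, against 4.69%. Between the sites of a gene the share could differ, as in Mrpl17, where 8.10% of 210 reads at the first site and 2.08% of 48 reads at the second were under 30 nt. It could also be higher at the second site, as in Mrpl43 with 6.19% of 113 and 11.9% of 67 reads and in Mrpl46 with 4.69% of 128 and 9.09% of 22.

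Short tails were spread over the genes. A member had a median of 10 such reads, at most 35 (Mrpl18), and Mrpl36 and Mrpl53 had none. Over the 78 genes the median share was 4.72%, against 2.90% over 5764 other genes with at least 30 reads, and 58 of the 78 lay above that value. The share was highest for Mrpl2 at 11.4% (33 of 290 reads), followed by Mrpl39 at 9.73% and Mrps28 at 9.35%. It was 0.625% for Mrps17, with 1 of 160 reads.

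**Figure D2:**
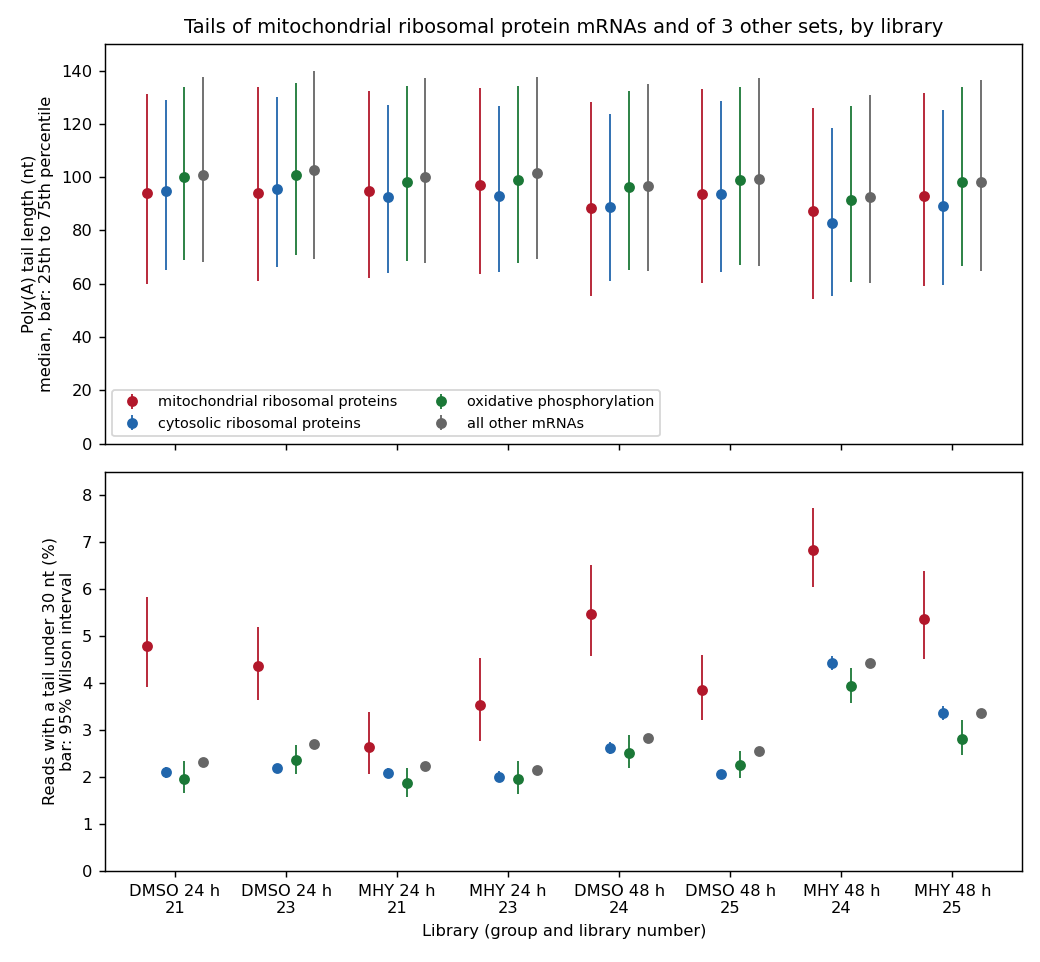
Poly(A) tails in the 8 libraries for mRNAs of the mitochondrial ribosome, of cytosolic ribosomal proteins, of oxidative phosphorylation and for all other mRNAs, as the median tail in nt with the 25th to 75th percentile (upper) and as the percentage of reads under 30 nt with its 95% Wilson interval (lower). The mitochondrial ribosome set has the highest share of reads under 30 nt in all 8 libraries, from 2.65% to 6.84%.

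In the middle class of 30 to 90 nt, called ~60-nt in the study, the set held 40.7% to 45.6% of its reads. That was 1.39 to 4.48 points above all other mRNAs in 8 of 8 libraries. Against cytosolic ribosomal protein mRNAs the difference was -6.14 to -0.773 points, below 0 in 8 of 8. Small subunit mRNAs had longer medians than large subunit mRNAs in 6 of 8 libraries, by up to 7.35 nt, and shorter ones in the other two. Their shares under 30 nt differed in either direction.

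Gene by gene, the pooled median tail ran from 76.5 nt for Mrpl2 to 116 nt for Mrps17, with a median over the 78 genes of 94 nt. The other 5764 genes had a median of 105 nt, and 70 of the 78 (89.7%) lay below it. Among genes with at least 200 reads the shortest were Mrpl2 (76.5 nt), Mrps28 (76.9 nt) and Mrpl54 (78.6 nt), and the longest were Mrps33 (106 nt), Mrps21 (103 nt) and Mrpl49 (100.4 nt). Mrpl2, a homologue of a bacterial protein at the core of the large subunit, ranged from 60 to 116 nt between libraries. Mrps28, a small subunit protein, ranged from 61.4 to 93.4 nt, and Mrps33, another one, from 99.3 to 121 nt. The ranges of Mrps28 and Mrps33 did not overlap. Those of Mrpl2 and Mrps33 did, as did those of almost all neighbours in the order.

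The order of the genes by tail was weak at this depth. Between the DMSO libraries of 24 h and of 48 h the Spearman rho of the gene medians was 0.36 over 78 genes. It was 0.37 between DMSO and MHY at 48 h and 0.082 at 24 h. Each median there rests on the reads of 2 libraries. Genes with more reads had shorter tails (rho -0.48 over 78 genes, as a description, since they share libraries and mRNA length). Mrps17 had medians over those of other mRNAs in 8 of 8 libraries, and Mrpl13, Mrpl52, Mrpl54, Mrpl55, Mrpl58, Mrps18b, Mrps28 and Mrpl39 had medians below them in 8 of 8.

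**Figure D3:**
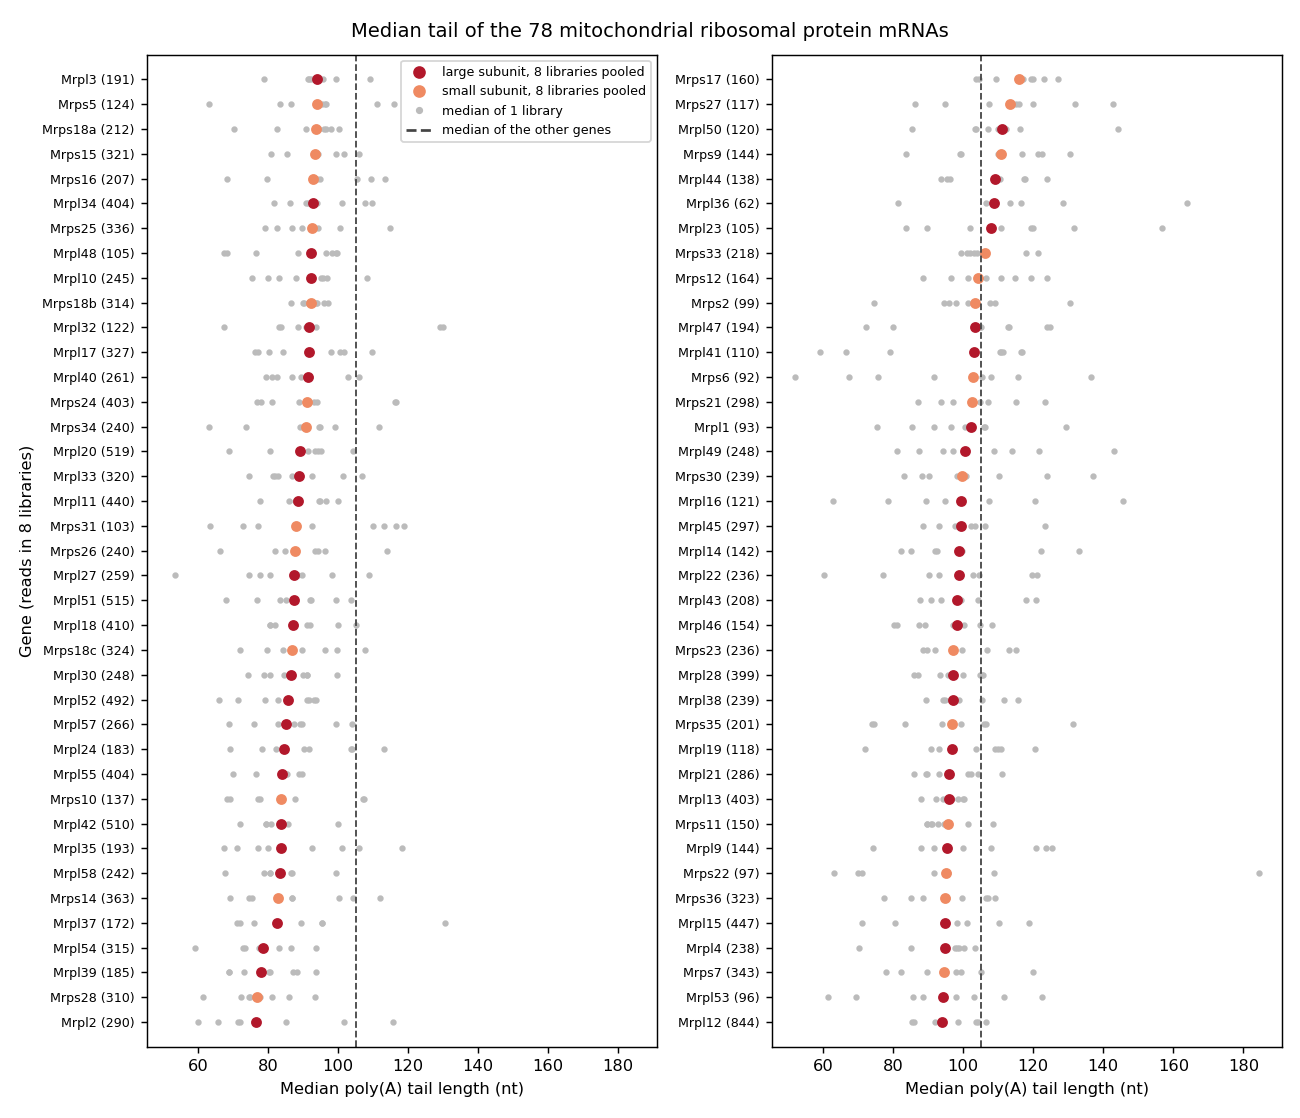
Median poly(A) tail length in nt of each of the 78 genes, with the reads pooled over the 8 libraries (colored by subunit), with the median of each library in grey and the median over 5764 other genes as a dashed line. Of the 78 pooled medians 70 lie below the line, from Mrpl2 at 76.5 nt upward, and the libraries of 1 gene spread over a wider range than most genes differ.

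MHY was compared with DMSO first for the set as a whole, as a description with no test. At 24 h the share under 30 nt was lower in both MHY libraries than in both DMSO libraries, at 3.10% ± 0.631 against 4.57% ± 0.303 (SD, n = 2), a difference of -1.48 percentage points. Within the 3 runs the difference was -0.597, -2.84 and -1.22 points. All other mRNAs also had lower shares in both MHY libraries at 24 h, with a difference of -0.321 points, which was -0.127 without DMSO 24 h library 23 and -0.515 without DMSO 24 h library 21. At 48 h the share was 1.45 points higher with MHY (4.66% ± 1.14 against 6.10% ± 1.03), the groups overlapped, and both runs had the same direction, with 1.39 and 1.48 points. Without MHY 48 h library 24 that difference was 0.715 points, and without MHY 48 h library 25 it was 2.18 points. Without DMSO 48 h library 24 it was 2.25 points, and without DMSO 48 h library 25 0.639 points. The runs of a time hold reads of the same libraries and are not further replicates. By library number the share was 5.47% with DMSO and 6.84% with MHY for 24, and 3.85% and 5.37% for 25. Whether these numbers pair cultures is not given. For all other mRNAs the share at 48 h was 1.20 points higher with MHY, with no overlap between the groups, and 0.657 points higher without MHY 48 h library 24.

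The ~60-nt share averaged 42.2% with DMSO and 42.3% with MHY at 24 h, and 44.6% and 44.0% at 48 h, with overlap at both times. The difference at 48 h was -0.61 points, and from -1.81 points (without MHY 48 h library 24) to 0.586 points (without MHY 48 h library 25) with 1 library left out. The median tail was higher in both MHY libraries at 24 h, by 1.70 nt (94.1 ± 0.131 against 95.8 ± 1.58). It was 0.588 nt without MHY 24 h library 23 and 2.82 nt without MHY 24 h library 21, and in 1 of the 3 runs it was -0.985 nt. At 48 h the medians overlapped, with a difference of -1.12 nt, which was 1.61 nt without MHY 48 h library 24 and -3.86 nt without MHY 48 h library 25. For cytosolic ribosomal protein mRNAs in the same libraries, the median was lower in both MHY libraries at 24 h, with a difference of -2.49 nt, and the ~60-nt share was higher by 2.18 points. At 48 h their share under 30 nt was higher in both MHY libraries, by 1.56 points, and by 1.02 without MHY 48 h library 24.

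Per gene, limma found no change for a member at either time. The 3 tail measures were fitted for 1949 genes with at least 10 reads in each library, 63 of them members, with Benjamini-Hochberg adjustment over all 1949 and a threshold of 0.05 on the adjusted p. For the share under 30 nt no gene was called at 24 h (0%), and 110 genes (5.64%) had an unadjusted p under 0.05, of which 3 were members. At 48 h 7 genes (0.359%) were called and none was a member, while an unadjusted p under 0.05 was met by 207 genes (10.6%) and 6 of 63 members. The members' median log2 odds ratio was -0.36 at 24 h and 0.60 at 48 h, beside -0.07 and 0.41 over all genes. The difference between the times called no gene (0%), with 166 genes (8.52%) and 6 members at an unadjusted p under 0.05.

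Mrpl4 and Mrpl20, both large subunit proteins with bacterial homologues, had the lowest p at 48 h. Mrpl20 had 1 short-tailed read of 64 and 3 of 81 in DMSO 48 h libraries 24 and 25, and 10 of 79 and 5 of 55 in MHY 48 h libraries 24 and 25. Its log2 odds ratio was 1.97 ± 0.60 (SE), with an adjusted p of 0.275. Mrpl4 had none of 20 and none of 43 short-tailed reads with DMSO at 48 h, and 6 of 47 and 1 of 23 with MHY. Its log2 odds ratio, which depends on the 0.5 read added to each class, was 3.02 ± 0.88, with an adjusted p of 0.265. In both genes the MHY libraries lay above the DMSO libraries, on counts of 10 reads or fewer. For the difference between the times these genes also had the lowest p, with 4.06 ± 1.32 for Mrpl4 (adjusted p = 0.457) and 2.57 ± 0.89 for Mrpl20 (adjusted p = 0.478). With class bounds of 20 nt and 40 to 80 nt Mrpl20 gave -0.22 between the times and 0.15 at 48 h, and Mrpl4 gave 1.81 at 48 h. At 24 h Mrpl34 had no short-tailed read in either DMSO library and 2 and 1 with MHY (adjusted p = 0.721), and its log2 odds ratio of 1.91 was -0.14 with the bound at 20 nt. Mrps24 had 4 and 6 with DMSO and 1 in each MHY library (adjusted p = 0.788).

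For the ~60-nt share no gene was called at 24 h (0%), and 5 of 1949 (0.257%) were called at 48 h, none of them a member. An unadjusted p under 0.05 was met by 95 genes (4.87%) and 1 member at 24 h, and by 120 genes (6.16%) and 2 members at 48 h. The difference between the times called none (0%), with 69 genes (3.54%) and 1 member at that p. Mrpl12, the stalk protein, had the most reads behind its value. Its ~60-nt share was 38.1% and 42.0% in DMSO 48 h libraries 24 and 25, and 50% and 52.0% in MHY 48 h libraries 24 and 25, a log2 odds ratio of 0.60 ± 0.29 (adjusted p = 0.767). At 24 h its shares were 48.1% and 45.1% with DMSO and 35.7% and 45.6% with MHY, so that the groups overlapped. The difference between the times was 1.00 ± 0.42 (adjusted p = 0.994), and 0.64 without MHY 24 h library 21. Mrpl33 (60.6% and 58.8% with MHY against 45.2% and 36.4% with DMSO) and Mrpl51 (60.8% and 54.2% against 36.7% and 47.6%) were first at 24 h, both with an adjusted p of 0.979. Mrpl16 at 48 h had 22.2% and 35.7% with MHY against 57.1% and 55.6% with DMSO, on 14 to 18 reads per library (adjusted p = 0.793). Mrps7 was second for the difference between the times, at -1.11 ± 0.67 (adjusted p = 0.994), and -0.53 without MHY 24 h library 21.

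The mean log2 tail, a measure with no class bound, called no gene at 24 h (0%), 24 of 1949 (1.23%) at 48 h and none for the difference (0%). No member was called. An unadjusted p under 0.05 was met by 58 genes (2.98%) and 3 members at 24 h, 231 genes (11.9%) and 1 member at 48 h, and 106 genes (5.44%) and 3 members for the difference. At 48 h all 78 cytosolic ribosomal protein genes had a value below 0, and 19 of them were called with shorter tails. Their pooled median tail differed by -5.41 nt at 48 h, and by -2.24 nt without MHY 48 h library 24. They had 54942 to 96705 reads per library, against 1694 to 3467 for the members, whose signs rest on fewer reads. Of the 63 members 27 had a value above 0, and their median was -0.05, as was that of all genes. Mrpl9, a homologue of a bacterial large subunit protein, had the lowest p of the members at 48 h. Its median tails were 121 and 99.9 nt with DMSO and 74.2 and 125 nt with MHY, so that the groups overlapped (log2 -0.47 ± 0.19, adjusted p = 0.296). Mrpl51, with -0.20 ± 0.10 (adjusted p = 0.441), came next. Without MHY 48 h library 24 these values were -0.03 for Mrpl9 and -0.06 for Mrpl51, and without DMSO 48 h library 25 that of Mrpl51 was -0.10.

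Mrpl2 had the lowest p for the difference between the times. Its median tails were 60 and 71.5 nt in DMSO 24 h libraries 21 and 23, and 102 and 116 nt in MHY 24 h libraries 21 and 23. At 48 h they were 76.0 and 85.2 nt with DMSO and 65.7 and 72.2 nt with MHY. The MHY libraries thus lay above the DMSO libraries at 24 h and below them at 48 h. The difference in mean log2 tail was 0.49 ± 0.17 at 24 h (adjusted p = 0.995), and the change between the times was -0.68 ± 0.21 (adjusted p = 0.807). Neither passed the threshold. Leaving out 1 library at a time gave -0.42 (without MHY 48 h library 24) to -0.80 (without MHY 48 h library 25). The latter had an adjusted p of 0.0390, with library 24 alone standing for MHY at 48 h and assumed to vary like the other groups. Mrpl15, a large subunit protein, gave 0.35 ± 0.13 at 24 h (adjusted p = 0.995), and Mrpl38 gave -0.50 ± 0.20 between the times (adjusted p = 0.807).

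**Figure D4:**
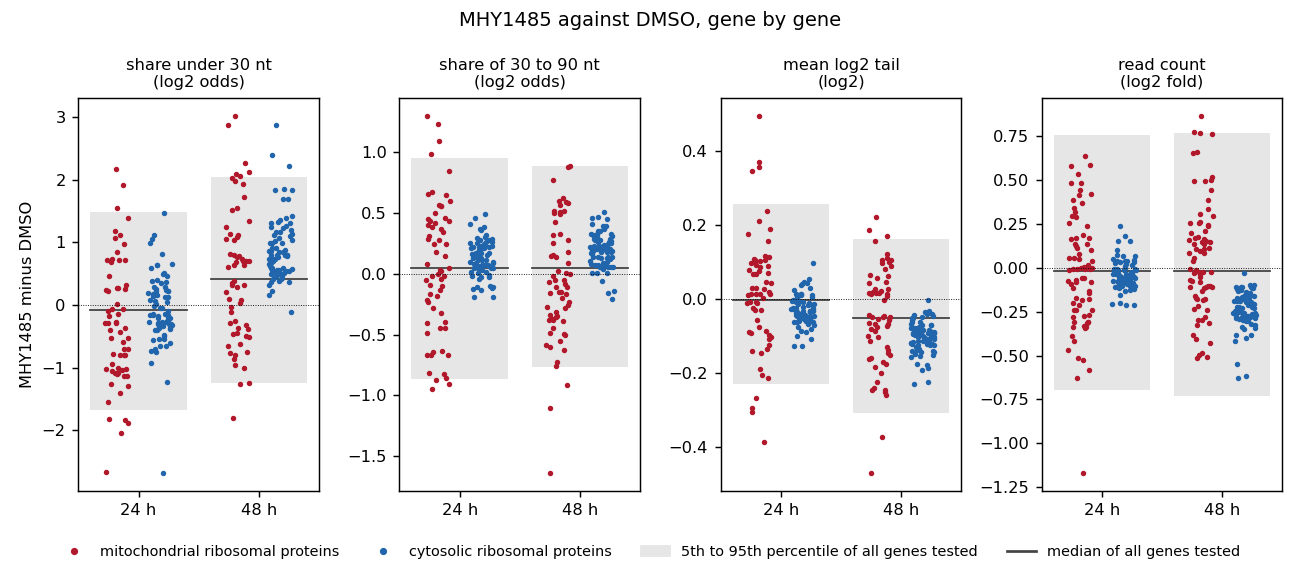
MHY1485 minus DMSO at 24 h and 48 h for 4 measures, each point 1 gene of the mitochondrial ribosome or of the cytosolic ribosome, with the 5th to 95th percentile and the median of all genes tested (1949 genes for the tail measures, 4116 for counts). At 48 h all 78 cytosolic ribosomal protein genes lie below 0 for tail length and for count (72 of 78 for count when scaled by total reads), and members of the mitochondrial ribosome lie on both sides. The cytosolic set had 54942 to 96705 reads per library and the members 1694 to 3467, so the signs of members rest on fewer reads.

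Read counts were tested by limma voom for 4116 genes, those reaching 10 reads in 2 or more libraries, 77 of them members (all but Mrpl36). At 24 h 2 genes (0.0486%) were called, at 48 h 71 genes (1.72%), and for the difference between the times 14 genes (0.34%). No member was among them. An unadjusted p under 0.05 was met by 184 genes (4.47%) and 3 members at 24 h, 506 genes (12.3%) and 4 members at 48 h, and 273 genes (6.63%) and 3 members for the difference. The members' median log2 fold change was -0.01 at 24 h and 0.04 at 48 h, and 39 of 77 were above 0 at 48 h. All 78 cytosolic ribosomal protein genes were below 0 at 48 h, with a median of -0.24, and 5 were called as lower. Scaled by total reads, 72 of the 78 were below 0, with a median of -0.13, and 2 were called as lower. That scaling moved the median of all genes at 48 h by 0.12, to 0.10, and that of the members to 0.15, so that members stayed near all genes under either scaling.

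Mrps18a and Mrps18b had the lowest p of the members at 48 h. The Mrps18 family has 3 members, all homologues of the same bacterial small subunit protein, of which Mrps18a is known to sit in the large and Mrps18b and Mrps18c in the small subunit. Mrps18a had 20.5 and 19.5 normalized reads in DMSO 48 h libraries 24 and 25, and 42.0 and 30.3 in MHY 48 h libraries 24 and 25. The groups did not overlap, the log2 fold change was 0.87 ± 0.28, and the adjusted p was 0.0753. Mrps18b had 44.2 and 25.5 normalized reads with DMSO and 58.9 and 41.7 with MHY, which overlapped, with 0.66 ± 0.23 and an adjusted p of 0.133. Mrps18c had 36.7 and 40.4 with DMSO and 44.0 and 40.7 with MHY. Mrps18a passed the threshold with scaling by total reads (0.98, adjusted p = 0.0360), and both Mrps18a (1.06, adjusted p = 0.0121) and Mrps18b (0.87, adjusted p = 0.0162) passed without MHY 48 h library 25, when library 24 alone stood for MHY and was assumed to vary like the other groups. Without MHY 48 h library 24 the values were 0.60 and 0.38, and for Mrps18b 0.21 without DMSO 48 h library 25 and 0.99 without DMSO 48 h library 24, none passing the threshold. At 24 h Mrps18a had 18.8 and 18.8 normalized reads with DMSO and 16.3 and 30.5 with MHY, and Mrps18b had 31.3 and 34.3 with DMSO and 31.5 and 21.2 with MHY. The difference between the times was 0.96 ± 0.37 for Mrps18b (adjusted p = 0.450), and 0.51 without DMSO 48 h library 25.

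At 24 h the lowest p was that of Mrpl43, a large subunit protein with no bacterial homologue. It had 31.3 and 36.0 normalized reads with DMSO and 17.3 and 12.0 with MHY, with no overlap (log2 fold change -1.17 ± 0.35, adjusted p = 0.433). At 48 h it had 30.2 and 26.2 with DMSO and 24.4 and 16.7 with MHY. Mrpl27, whose bacterial homologue lies near the peptidyl transferase centre, had 25.1 and 25.7 with DMSO and 33.6 and 45.2 with MHY at 24 h (0.58 ± 0.28, adjusted p = 0.958). Mrps34, a small subunit protein found only in mitochondrial ribosomes, was second for the difference between the times at -0.94 ± 0.39 (limma voom, adjusted p = 0.566). Of its reads 3.75% reached a mapping quality of 10, a score that does not separate doubt between its transcripts from doubt between genes.

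Other genes of mitochondrial translation gave no call either. Of 5 mitoribosomal proteins with other names that had reads (Dap3, Ptcd3, Chchd1, Gadd45gip1 and Aurkaip1), all 5 were tested for counts and none was called at 24 h or 48 h. Of 12 translation factors 5 were tested and none was called, and of 28 assembly and rRNA factors 14 were tested and none was called, where 1.72% of all genes were called at 48 h. In the last list 10 of 14 genes lay above 0 at 48 h, with a median log2 fold change of 0.50 beside -0.02 over all genes. In the other two lists 1 of 5 genes lay above 0, with medians of -0.02 for the proteins with other names and -0.16 for the translation factors. An unadjusted p under 0.05, met by 12.3% of all genes, was met by 3 of the 14, Ngrn (1.25 ± 0.48, adjusted p = 0.194), Rpusd3 (1.49 ± 0.66, adjusted p = 0.305) and Eral1 (1.06 ± 0.52, adjusted p = 0.380), all named after their values were seen. Among these genes Tufm, the mitochondrial elongation factor Tu, had 112 to 170 RPM in the 8 libraries and a pooled median tail of 94.9 nt. C1qbp, an abundant matrix protein tied to mitoribosome assembly, had 499 to 701 RPM and a median tail of 100.2 nt. The 3 lists had median tails of 94, 99.4 and 99.5 nt, beside 92.6 nt for the set.

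The annotated starts were searched for TOP-like letters. Promoters, from 250 bases before to 50 after a gene start, were taken from RefSeq (GRCm38) for 69 of the 78 members. A C at the first base followed by 4 pyrimidines was found at no start of these 69 genes, at starts of 14 of 57 cytosolic ribosomal protein genes (24.6%) and of 153 of 4648 other genes with at least 30 reads (3.29%). Annotated starts can miss the start used in these cells, so that a start without these letters, as in most cytosolic ribosomal protein genes here, says nothing about the mRNA's real first base. Motifs of factors known to drive nuclear genes of mitochondrial proteins were searched on both strands of the 300 bases. The core CGCATGCG of the NRF1 site was found in 7 of the 69 genes (10.1%), CCGGAAGT, the site of ETS factors such as GABP, in 12 (17.4%), and AAGATGGC, the core of the YY1 site, in 12 (17.4%). Other genes with at least 30 reads held them in 5.46%, 12.3% and 7.27%. At least 1 of the 3 was found for 42.0% of the members and for 23.2% of the other genes. Cytosolic ribosomal protein genes held the NRF1 core in 5.26%, the ETS site in 19.3%, the YY1 core in 10.5% and at least 1 of them in 35.1%.

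The following 30-base windows of promoters show examples of the NRF1 and ETS motifs among the genes named above, with the motif in capitals. Mrps18b and Mrpl17 hold the palindromic NRF1 core, and Mrpl43 and Mrps18c the ETS site, which is on the other strand in Mrps18c.
Mrps18b at chr17:35916646-35916675 (-): aaacggcccgaCGCATGCGcactgggagca
Mrpl17 at chr7:105811079-105811108 (-): ccgagttactgCGCATGCGtcctctgagac
Mrpl43 at chr19:45006436-45006465 (-): caaccccggaaCCGGAAGTcaccggttagt
Mrps18c at chr5:100798591-100798620 (+): cgggtcacgtgACTTCCGGcccgggaagcg
Such a match is a description of the sequence and not evidence that a factor binds there.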

How the data were processed

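Per the authors, base calling used Guppy, barcodes came from Deeplexicon, and tail estimates came from Nanopolish after alignment by minimap2 2.20 to mm10 with GENCODE vM17 genes. The deposited table has 1 alignment per line. Its deposited tail length is in nt with no normalization, its deposited mapping quality is a score, and its deposited barcode confidence is a fraction. It holds no count column, so the authors' count test was not repeated, and counts were made by counting lines. Samples are grouped by the labels through the table's condition names, of which those with no time suffix were taken as 24 h, and which of a group's 2 libraries is which labelled replicate is not given in the sources used here.

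Lines with the tag PASS on mRNAs were kept once per read and transcript, and 66955 reads on mitochondrially encoded mRNAs were set aside. Log2 odds of the tail classes (0.5 read added), mean log2(tail + 1) and counts (voom, median-of-ratios size factors) were fitted with limma 3.58.1 in R 4.3.3 over all 8 libraries, tail measures with reads as weights and at least 10 reads in each library, and tested two-sided with Benjamini-Hochberg adjustment. The fits were tested on simulated data, which held no shift of a whole library and, for tails, only sampling noise. Shares have Wilson 95% intervals. Sites were windows of 15 nt to either side holding at least 15 reads and 10% of a transcript's reads, at least 50 nt apart. Python 3.11.15 with pandas 2.3.3, numpy 2.4.6, scipy 1.17.1 and matplotlib 3.10.9 did the rest. Coordinates and lengths come from GENCODE vM21, on the same assembly.

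The members, lists and measures were chosen with earlier results of these data known. Named genes were the 8 with most reads, the 3 with the shortest and 3 with the longest tail among those with at least 200 reads, the Mrps18 family and the 2 of lowest p per measure and contrast. Others named as extremes of a count or of mapping quality, or for their 3′ ends, were chosen after their values were seen. The 3′ end sites were added after the data were seen. Alternatives were minimum reads, weights, class bounds, added reads, mapping quality, barcode confidence, 1 line per read, any quality tag, scaling, single runs, 4 libraries only, a replicate block and leaving out each library.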

Additional observations from a re-analysis of the deposited data

Results flagged for a closer look

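Reads on the pseudogene Mrpl23-ps1 were outside the comparisons, since transcripts typed as pseudogenes were left out. They numbered 295, with 24 to 46 in each library, and had a median tail of 88.4 nt. Of these reads 5.08% reached a mapping quality of 10, and none was also listed on Mrpl23, which had 105 reads. No group had enough libraries for a test of a single library standing apart.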

How the results depend on the processing

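No member was called under any alternative for the shares of tail classes, or at 24 h for mean tail and counts. Scaling by total reads called 1 member for counts at 48 h, Mrps18a. Leaving out 1 library gave 0 to 1 members for mean tail at 48 h, 0 to 1 for its difference between the times and 0 to 2 for counts at 48 h, the calls coming without MHY 48 h library 25. With class bounds of 20 nt and 40 to 80 nt the log2 odds ratio of Mrpl34 at 24 h was -0.14 and that of Mrpl20 between the times -0.22, both with the opposite sign. With those bounds the pooled short share differed by -0.620 points at 24 h and 0.325 at 48 h, and its excess over other mRNAs was 0.468. In run 1 alone the 24 h differences were -0.597 points and -0.985 nt. In run 2 alone they were -2.84 points for the short share, -2.16 for the ~60-nt share, 4.51 nt for the median and -589 RPM. In runs 1 and 3 the ~60-nt share differed by 1.29 and 0.765 points and the level by 220 and 463 RPM. At 48 h the level differed by 407 RPM in run 4 and 1375 in run 5. The cause of these changes was not tested.

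With a replicate block 0 members were called in every contrast. Libraries of the same number correlated at -0.047 to 0.089 in their deviations over 759 genes, none over 0.1, and were not paired. This says nothing about whole-library shifts, and at 48 h library 24 had the shorter median tail of the set under both treatments. Over all genes and alternatives, calls at 48 h ranged from 0 to 17 for the short share, 0 to 36 for the ~60-nt share, 0 to 98 for mean tail and 17 to 147 for counts, and from 0 to 30 for the difference in counts between the times. With 2 libraries a group and 10 short-tailed reads per member (median), depth limits what can be seen for single genes.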

Other observations

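Several mRNAs of the mitochondrial ribosome ended at more than 1 poly(A) site, and in 3 of them the reads with the longer 3′ end had the longer median tail and passed an adjusted test that rests on its smallest possible p. Tails at the first and last site of 19 transcripts of 18 genes were compared after the data were seen, and 15 transcripts had reads at both sites in all 8 libraries. Mrpl17 reads ended at 823 nt (210 reads, median tail 83.3 nt) or at 1188 nt (44 reads, 111 nt). Mrps25 reads ended at 761 nt (264 reads, 83.9 nt) or at 1483 nt (34 reads, 131 nt). Mrpl49 reads ended at 710 nt (106 reads, 82.8 nt) or at 1748 nt (47 reads, 115.5 nt). The mean log2 tail at the last site was higher in 8 of 8 libraries for each, by 0.53 ± 0.25 (SD, n = 8) for Mrpl17, 0.60 ± 0.37 for Mrps25 and 0.52 ± 0.29 for Mrpl49. By an exact two-sided sign-flip permutation test over the libraries each p was 0.00781, the smallest that 8 libraries can give, and 0.0391 adjusted over the 15. That adjusted value needs 3 transcripts at the smallest p together. With a mapping quality of at least 10 none of the 15 passed (lowest adjusted exact permutation p = 0.0586), nor with a barcode confidence of at least 0.9 (lowest 0.0781). With any 1 library left out none passed either, at a lowest adjusted value of 0.0586 to 0.0781. With 7 libraries the smallest exact permutation p is 0.0156, so that more than 3 transcripts would need it together to pass. With the window centred on the most frequent end Mrpl17, Mrps25 and Mrps7 passed and Mrpl49 did not (adjusted exact permutation p = 0.0586). The difference in mean log2 tail kept its sign for Mrpl17, Mrps25 and Mrpl49 under each of these alternatives, at 0.46 to 0.68. Mrps7, a small subunit protein, showed 0.32 ± 0.29 with 7 of 8 libraries higher (exact permutation p = 0.0234, adjusted 0.0879). Mrpl45 showed 0.28 ± 0.34 (exact permutation p = 0.0391, adjusted 0.117). No other of the 15 had an adjusted p under 0.3.

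A longer end did not go with a longer tail in every gene. Mrpl12, with 487 and 331 reads at sites 954 and 1005 nt from the start, differed by -0.03 ± 0.11, and Mrpl40, with 153 and 100 reads, by -0.03 ± 0.15. Mrps36, whose product is known as a part of the oxoglutarate dehydrogenase complex in spite of its name, ended at 3 sites, and its first and last differed by -0.02 ± 0.24. For Mrpl46 the longer form had the shorter median, 63.5 against 99.0 nt, on 22 and 128 reads (difference -0.31 ± 0.50, exact permutation p = 0.125).

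In these 3 genes few reads used the last site. It held 6.45% to 23.9% of the reads at the sites of Mrpl17 in single libraries, 5.56% to 18.2% for Mrps25 and 14.3% to 29.4% for Mrpl49, in each case on 2 to 15 reads per library. DMSO and MHY libraries overlapped in this share for Mrpl17 and Mrps25 at both times. For Mrpl49 both MHY libraries were above both DMSO libraries at 24 h (25% and 28.6% against 20% and 14.3%) and at 48 h (29.4% and 22.2% against 19% and 14.7%), which was noticed in the data and not tested.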
